A study of Rattus norvegicus with 6 samples.

Results

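A set of 10 genes with parent-of-origin expression was followed in Schwann cell precursors (SCPs) and repair Schwann cells (RSCs) of the rat: H19, Meg3, Cdkn1c, Grb10, Dlk1, Mest, Plagl1, Peg3, Ndn and Peg10. They were taken by name, out of 29468 gene symbols in the tables, from a list chosen with earlier results of these data known. Of the 10, 8 stood under their own symbol, and 2 were found through RefSeq, Meg3 as the synonym RGD1566401 and Peg3 as the gene ID LOC103691034. The named transcripts of 9 passed a filter of a mean of at least 1 FPKM (fragments scaled to transcript length and to the number of mapped fragments) over the 6 samples, which 13003 genes passed, and those of Peg3 did not.

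All 6 samples came from wild type rats of the LEWIS strain by their labels. The 3 SCP samples were cells from both sciatic nerves and the brachial plexus of untreated embryos at embryonic day 14, and the 3 RSC samples were cells from the cut sciatic nerve, distal to the lesion, of rats 10 weeks old, 1 week after the cut. The methods describe enzymatic dissociation, with more collagenase and a longer incubation for the adult nerve, and a short step in uncoated flasks against adhesive fibroblasts and macrophages. They also say that the cells for grafting carried a red fluorescent transgene, which the labels of these samples do not mention. The reporting summary gives 3 sets of cells for each group, but not whether animals were pooled or whether the sets came from separate litters or animals, so the tests measure the spread between these sets, part of which may be technical. Age, tissue of origin and nerve injury differ together between the groups and cannot be told apart.

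Imprinted genes are expressed mainly from the allele of 1 parent, because a methylation mark set in egg or sperm is kept on that allele in the offspring. Many act on growth of the embryo and placenta, and many are known to fall in level after birth. In the mouse H19, Meg3, Cdkn1c and, in most tissues, Grb10 are expressed from the maternal allele, and the other 6 from the paternal allele. These libraries give the total RNA of a gene and say nothing of which allele it came from.

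Imprinting control elements are rich in CpG, the dinucleotide that carries the methyl mark. The bases upstream of the start are shown for the members with the most and the fewest CpG. These stretches are promoters, and whether any of them lies in an imprinting control element was not looked at. RefSeq (build GRCr8) gave a promoter for 8 members, all but H19 and Cdkn1c. In each line below the 250 bases before the annotated start are printed 5′ to 3′ on the strand of the gene, with every CG in capitals. Grb10 lies at chr14:90816388-90816637 on the minus strand, and Dlk1 at chr6:134192347-134192596, Meg3 at chr6:134273806-134274055 and Ndn at chr1:125260809-125261058 on the plus strand.
Grb10: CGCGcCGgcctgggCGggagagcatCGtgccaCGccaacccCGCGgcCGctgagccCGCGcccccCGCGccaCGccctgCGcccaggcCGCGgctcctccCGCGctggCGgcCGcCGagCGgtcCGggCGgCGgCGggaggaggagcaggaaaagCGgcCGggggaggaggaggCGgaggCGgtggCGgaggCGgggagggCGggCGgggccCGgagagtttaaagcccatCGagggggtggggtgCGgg
Dlk1: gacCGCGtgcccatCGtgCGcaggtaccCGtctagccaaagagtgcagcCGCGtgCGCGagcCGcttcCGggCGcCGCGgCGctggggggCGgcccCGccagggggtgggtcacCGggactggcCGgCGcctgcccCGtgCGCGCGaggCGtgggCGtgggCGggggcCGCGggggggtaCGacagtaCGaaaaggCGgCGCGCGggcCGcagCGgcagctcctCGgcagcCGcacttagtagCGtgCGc
Meg3: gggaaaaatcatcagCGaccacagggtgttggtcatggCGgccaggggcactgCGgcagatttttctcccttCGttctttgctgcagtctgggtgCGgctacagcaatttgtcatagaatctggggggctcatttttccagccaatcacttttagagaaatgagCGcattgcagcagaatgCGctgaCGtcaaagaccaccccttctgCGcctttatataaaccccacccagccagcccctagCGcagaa
Ndn: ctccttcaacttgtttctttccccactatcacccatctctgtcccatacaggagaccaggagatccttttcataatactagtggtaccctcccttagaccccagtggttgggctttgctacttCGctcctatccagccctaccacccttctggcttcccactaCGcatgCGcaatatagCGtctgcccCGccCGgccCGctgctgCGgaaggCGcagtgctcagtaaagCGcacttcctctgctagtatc
Dlk1 held 41 CG and Grb10 38, while Meg3 and Ndn held 10 each. Over 33469 promoters of the same 250 bases the median was 5, and all 8 members were above it, with a median of 16.5. The hexamer TGCCGC, the core letters bound by the imprint-keeping factor Zfp57 when methylated, or its reverse complement GCGGCA was present in 4 of the 8, Dlk1, Meg3, Peg10 and Plagl1, against 8.91% of all promoters and 19.1% of the 12008 promoters with at least 10 CG. In both Dlk1 and Meg3 the match was on the reverse strand of the printed sequence. Such a match describes the letters only, and methylation was not measured.

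All 9 tested members were higher in SCPs than in RSCs at p under 0.01, the threshold of the study, by limma on log2(FPKM + 1), where 22.4% of all tested genes passed toward SCPs and 18.1% toward RSCs. No member was higher in RSCs. Of the 9, 8 were over 4-fold higher in SCPs on that scale, against 3.78% of all tested genes, and H19 was the exception. In 9 of 9 the lowest SCP sample lay above the highest RSC sample, which held for 33.7% of all tested genes. The members, like the later gene lists, were chosen with earlier results of these data known. Their counts beside the shares of all genes describe these lists and are no test of an excess. The median log2 fold change, RSC minus SCP, was -3.41 over the 9 members and -0.17 over all genes, so each member's value is to be read against a shift of -0.17. The members with maternal expression in the mouse had a median of -4.07 (4 genes, -6.26 to -1.52) and those with paternal expression -3.41 (5 genes, -5.59 to -2.23), and the ranges overlapped.

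**Figure D1:**
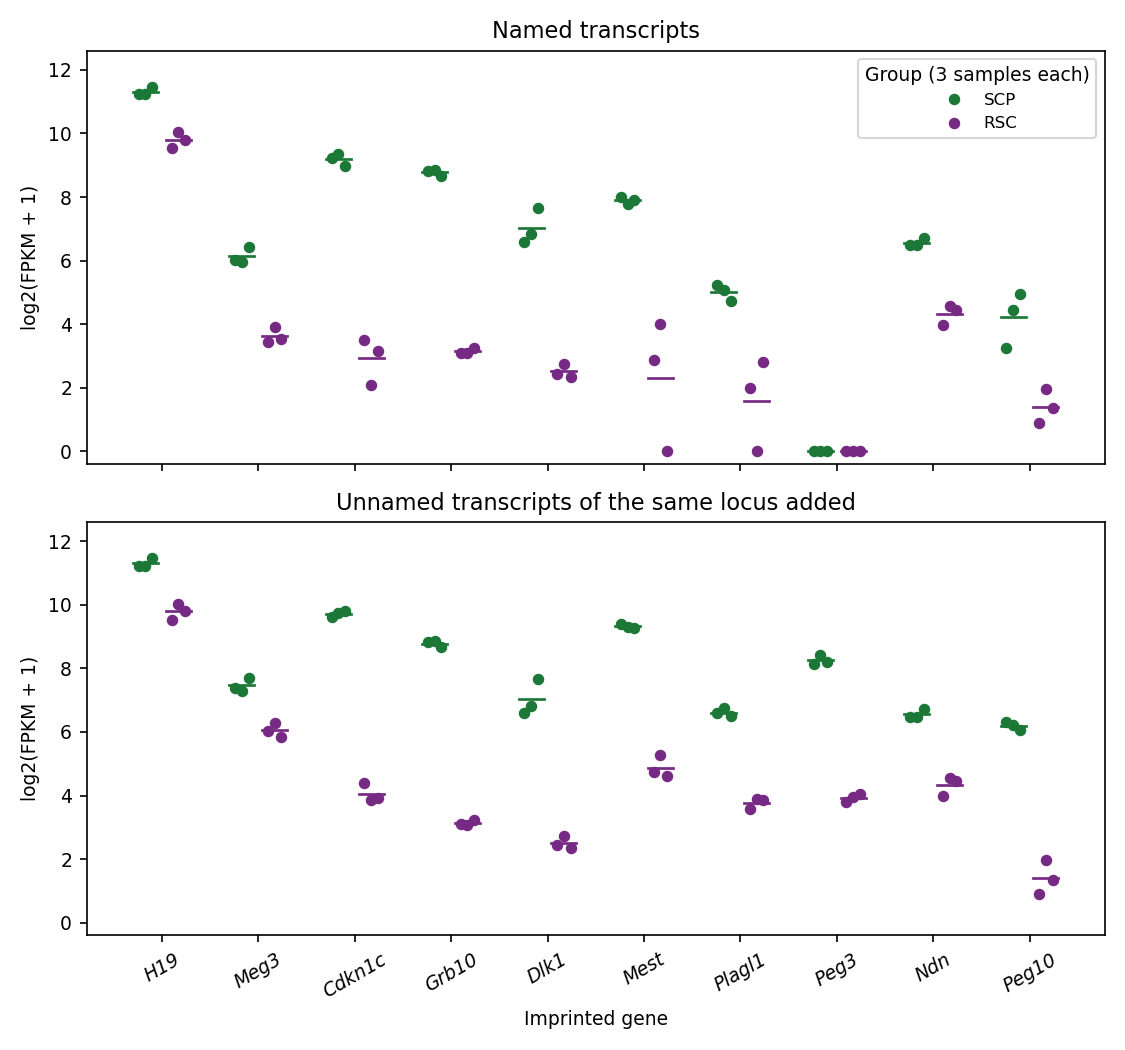
The level of each gene, log2(FPKM + 1), in each sample, from named transcripts in the upper panel and with the unnamed transcripts of the same locus added in the lower panel. Points are samples, short lines are the means of 3, and the points of the SCPs lie above those of the RSCs for 9 genes in the upper panel and for 10 in the lower panel.

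The tables also hold transcripts without a gene name, assembled anew in each sample, and several lay over the members. SCP samples held more of them (11355 to 12417, 26.1% to 31.9% of all FPKM) than RSC samples (8815 to 9119, 18.6% to 23.4%). Where these shared a Cufflinks locus with a member they were added in a second set of sums. Such a sum is not a proper gene level, because fragments of different length are added together, but it shows where a low or zero value of a named transcript came from reads placed elsewhere in the same gene. With them all 10 members were tested and all 10 were higher in SCPs at p under 0.01, where 34.2% of 14019 genes passed toward SCPs and 23.2% toward RSCs. Again 8 members were over 4-fold higher in SCPs, against 4.58% of genes, and in 10 of 10 the groups did not overlap, against 43.6% of genes. The median over the members was -4.38 and over all genes -0.24. The order by expressed allele turned round under these sums. The 4 maternal genes had a median of -3.58 (-5.66 to -1.41), and the 6 paternal genes, now with Peg3, -4.38 (-4.78 to -2.23).

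The noncoding RNAs came from H19, a growth-restraining transcript beside Igf2 and the host of a microRNA, and from Meg3, which lies beside Dlk1. H19 (rn6 chr1:215744404-215747080) stood at 2401, 2411 and 2845 FPKM in SCPs 1 to 3 and at 741, 1050 and 891 FPKM in RSCs 1 to 3. It was the most abundant member in both groups, and 12 of the tested genes had a higher mean in SCPs and 80 in RSCs. The SCP mean was 2.86 times the RSC mean, with a log2 fold change of -1.52 ± 0.14 (SE) and an adjusted p of 0.00049. Relative to the median gene this was -1.35, the smallest difference among the members tested on named transcripts. With unnamed transcripts that of Meg3 was smaller (-1.16 against -1.28 for H19).

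Meg3 (chr6:133658913-133691130, 75.2 kb past the end of Dlk1) stood at 63.7, 61.6 and 84.6 FPKM in SCPs and at 9.88, 14.1 and 10.6 FPKM in RSCs. The groups did not overlap, and the log2 fold change was -2.50 ± 0.19 (SE, adjusted p = 0.00021). The difference depended on the transcripts counted. With unnamed transcripts Meg3 stood at 168, 156 and 206 FPKM in SCPs and at 63.8, 77.5 and 57.0 FPKM in RSCs, and the log2 fold change was -1.41 ± 0.15 (adjusted p = 0.00025), no longer 4-fold. Among the 11 named transcripts the estimates also fell on different forms. The transcript of 3473 bases held 72.3%, 100% and 100% of the named FPKM in the 3 SCP samples and none in RSCs, while the transcript of 2018 bases held 76.7%, 100% and 76.9% in RSCs and none in SCPs. How Cufflinks divides reads among such overlapping forms is an estimate, and no test of isoform use was made.

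Cdkn1c and Grb10 restrain growth inside the cell. Cdkn1c encodes p57Kip2, an inhibitor of cyclin-dependent kinases, and Grb10 an adaptor that binds the insulin and IGF1 receptors and dampens their signal. Cdkn1c (chr1:216661067-216663774, 914 kb from H19) stood at 602, 649 and 505 FPKM in SCPs and at 10.5, 3.29 and 7.94 FPKM in RSCs. Grb10 (chr14:92021851-92117923) stood at 451, 465 and 405 FPKM in SCPs and at 7.58, 7.49 and 8.49 FPKM in RSCs. In SCPs 131 tested genes had a higher mean than Cdkn1c and 167 a higher mean than Grb10, and in RSCs 6901 and 6613. The SCP mean was 81.0 times the RSC mean for Cdkn1c and 56.0 times for Grb10. The log2 fold change was -6.26 ± 0.37 (SE, adjusted p = 8.8e-05) for Cdkn1c, with 9 tested genes below it, and -5.64 ± 0.09 (adjusted p = 4.9e-06) for Grb10, with 15 below it.

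For Grb10, 4 named transcripts were listed, and the form with the longest span, 96073 bases, was at 0 in all 6 samples. In SCPs the signal lay on 2 shorter forms, which held 52.9% to 55.8% and 44.2% to 47.1% of the gene's FPKM. For Cdkn1c 7 forms were listed, and a form of 1926 bases held 57.7% to 64.4% in SCPs. With unnamed transcripts Cdkn1c stood at 784, 863 and 885 FPKM in SCPs and at 20.0, 13.6 and 14.1 FPKM in RSCs, and the log2 fold change was -5.66 ± 0.15. The values of Grb10 were the same under both sums.

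Dlk1 encodes a membrane protein with EGF-like repeats that is related to the Notch ligands and can be shed from the cell. Dlk1 (chr6:133576513-133583751) stood at 95.4, 113 and 200 FPKM in SCPs and at 4.44, 5.68 and 4.11 FPKM in RSCs. SCP 3 stood above the other SCP samples, and the lowest SCP sample was still far above the RSCs. The SCP mean was 28.7 times the RSC mean (log2 fold change -4.51 ± 0.29 (SE), adjusted p = 0.00013), and without SCP 3 the log2 fold change was -4.20. Its spread within SCPs, 41.3% of the mean, was the largest of the members apart from Peg10. Mest, a protein with an alpha/beta hydrolase fold expressed in embryonic mesoderm, stood at 257, 217 and 238 FPKM in SCPs (chr4:58052786-58063227). In RSCs it was at 6.39 and 15.2 FPKM in samples 1 and 2 and listed at 0 in RSC 3. Cufflinks marked its single named transcript as low in data in all 6 samples, so the 0 can be a failed estimate. With unnamed transcripts no sample was at 0, and Mest stood at 676, 632 and 622 FPKM in SCPs and at 25.8, 38.0 and 23.4 FPKM in RSCs. The log2 fold change was -5.59 ± 0.99 (SE, adjusted p = 0.0053) from the named transcript and -4.45 ± 0.17 (adjusted p = 4.9e-06) with the unnamed ones. From the named transcript it was -6.45 without RSC 2 and -4.44 without RSC 3.

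Plagl1 and Peg3 encode zinc finger proteins that bind DNA, and Plagl1 is known as a regulator of other imprinted genes. Plagl1 (chr1:7219587-7270169) stood at 36.4, 32.8 and 25.6 FPKM in SCPs and at 2.94, 0 and 6.04 FPKM in RSCs. It had the weakest call of the 9, a log2 fold change of -3.41 ± 0.71 (SE, adjusted p = 0.0098). Without SCP 1, SCP 2 or SCP 3 the p was no longer under the threshold, with log2 fold changes of -3.31, -3.38 and -3.55. Without RSC 2, the sample listed at 0, the log2 fold change was -2.61, and without RSC 3 it was -4.02. With unnamed transcripts Plagl1 stood at 95.2, 106 and 89.1 FPKM in SCPs and at 11.0, 13.9 and 13.4 FPKM in RSCs, with no sample at 0 and a log2 fold change of -2.83 ± 0.12 (adjusted p = 6.0e-06).

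Peg3 was listed at 0 in all 6 samples under its named transcript, a model of 7392 bases at chr1:70210810-70218201. Unnamed transcripts began at the same base and ran to position 70237446, a span of 26637 bases, while RefSeq gives the gene 26810 bases on GRCr8. They stood at 283, 338 and 295 FPKM in SCPs and at 13.01, 14.46 and 15.60 FPKM in RSCs. The SCP mean was 21.3 times the RSC mean, with a log2 fold change of -4.32 ± 0.10 (SE, adjusted p = 1.3e-06). By these sums Peg3 was the fifth most abundant member in SCPs, below Grb10 and above Meg3, and its range overlapped neither.

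**Figure D2:**
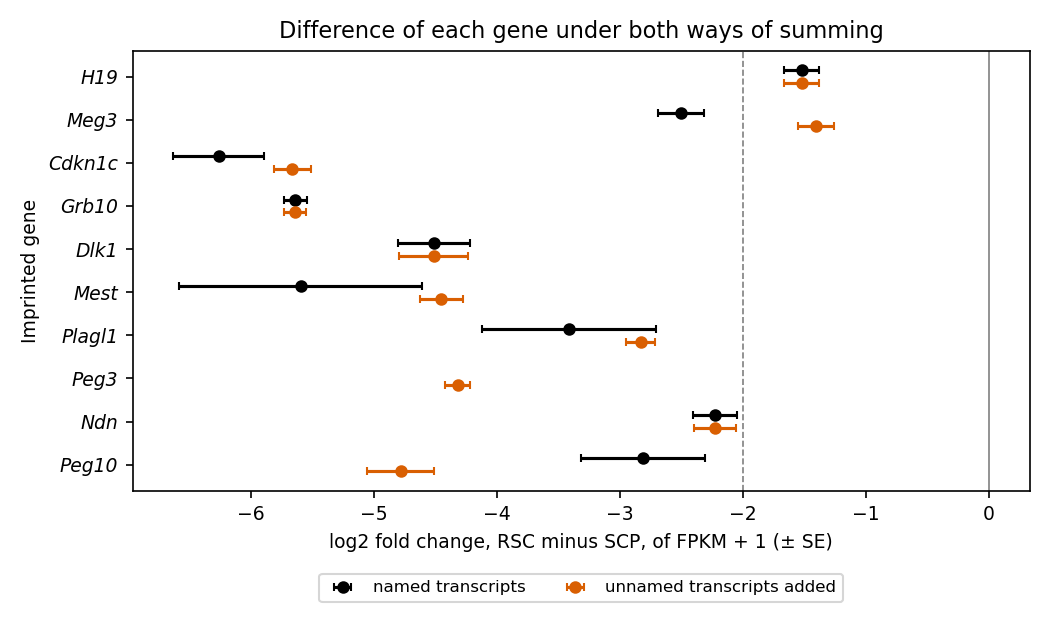
The log2 fold change of each gene on the log2(FPKM + 1) scale, RSC minus SCP, with its SE, from named transcripts (black) and with unnamed transcripts added (orange). The dashed line marks 4-fold, H19 lies short of it under both sums and Meg3 under the second, and Peg3 has a value only under the second.

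Ndn, a MAGE family protein of postmitotic neurons and muscle, and Peg10, a gene derived from a retrotransposon and needed in the placenta, completed the set. Ndn (chr1:122981755-122983354) stood at 88.6, 88.2 and 104 FPKM in SCPs and at 14.7, 22.7 and 20.9 FPKM in RSCs. From named transcripts it stood next below H19 in RSCs, while with unnamed transcripts Meg3 and Mest lay above it, and its log2 fold change was -2.23 ± 0.18 (SE, adjusted p = 0.00027). Peg10 (chr4:29795524-29804517) stood at 8.60, 20.9 and 29.6 FPKM in SCPs and at 0.852, 2.93 and 1.56 FPKM in RSCs. It was the least abundant tested member in both groups, and its log2 fold change was -2.81 ± 0.50 (SE, adjusted p = 0.0056). With unnamed transcripts the SCP samples stood at 77.8, 73.3 and 65.4 FPKM and the RSC values were the same, so that the SCP mean was 40.5 times the RSC mean (log2 fold change -4.78 ± 0.27, adjusted p = 1.8e-05). Unnamed forms were added to Peg10 in SCPs only, so this compares named and unnamed transcripts in SCPs with named ones alone in RSCs. SCP 1 was the lowest SCP sample under the first sum and the highest under the second.

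By level per length, the order in SCPs from named transcripts was H19, Cdkn1c, Grb10, Mest, Dlk1, Ndn, Meg3, Plagl1 and Peg10. The ranges of neighbours overlapped only for Dlk1 with Ndn and for Plagl1 with Peg10. In RSCs the order was H19, Ndn, Meg3, Grb10, Cdkn1c, Mest, Dlk1, Plagl1 and Peg10, and from Grb10 downward each range overlapped the next. With unnamed transcripts Mest (622 to 676 FPKM) stood above Grb10 (405 to 465 FPKM) in SCPs, and Meg3 (57.0 to 77.5 FPKM) and Mest (23.4 to 38.0 FPKM) above Ndn (14.7 to 22.7 FPKM) in RSCs. The summed FPKM of the members was 4003, 4058 and 4437 in SCPs and 798, 1121 and 951 in RSCs. H19 made up 59.4% to 64.1% of that sum in SCPs and 92.8% to 93.7% in RSCs. These sums were from named transcripts, with Peg3 at 0. With unnamed transcripts H19 made up 46.0% to 49.8% in SCPs and 82.1% to 84.9% in RSCs.

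**Figure D3:**
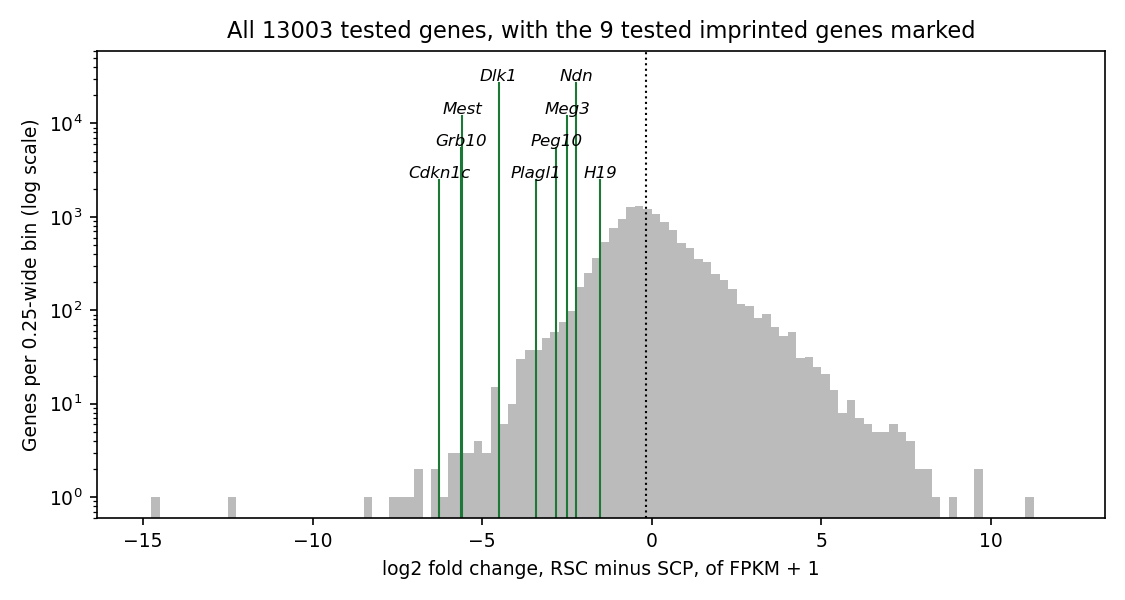
The distribution of log2 fold changes, RSC minus SCP, over 13003 tested genes, with genes per bin on a log axis, the median of all genes as a dotted line and the 9 tested imprinted genes as green lines. Cdkn1c, Grb10, Mest and Dlk1 lie in the sparse left end, and H19 lies in the left flank of the main body.

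The SCP and RSC labels were checked against markers, and markers of other cell types were present in both groups. Sox10, the factor of the Schwann lineage, stood at 175 to 181 FPKM in SCPs and 143 to 149 FPKM in RSCs, and S100b, a later Schwann cell marker, at 3.21 to 19.3 and 782 to 924 FPKM. The 8 Schwann lineage markers summed to 451 to 511 FPKM in SCPs and 1873 to 2395 FPKM in RSCs. The 10 skeletal muscle markers summed to 73.0 to 301 FPKM in SCPs and 6.60 to 10.1 FPKM in RSCs, and the muscle factor Myod1 was listed at 0 in every RSC sample. The 7 erythroid markers, led by globins, summed to 26119 to 116143 FPKM in SCPs and 1357 to 1848 FPKM in RSCs. The 4 cartilage markers, nearly all of it Col2a1, summed to 58.7 to 107 FPKM in SCPs and 0.289 to 0.598 FPKM in RSCs, and with unnamed transcripts, mainly of Col9a1, to 12.5 to 16.0 FPKM in RSCs. The other way, 7 leukocyte markers summed to 12.2 to 32.8 FPKM in SCPs and 2584 to 2805 FPKM in RSCs, and 9 fibroblast and mesenchyme markers to 681 to 1041 and 5373 to 8032 FPKM. Of these 9, 6 passed toward RSCs, beside 18.1% of all tested genes. Twist1 passed toward SCPs (18.0 ± 5.36 (SD) against 4.31 ± 1.81 FPKM, log2 fold change -1.86). With unnamed transcripts Prrx1 did so too (-1.80). The 5 endothelial and pericyte markers stood at 15.6 to 24.8 and 24.5 to 26.0 FPKM, or, with unnamed transcripts, mainly of Rgs5, at 33.9 to 66.2 and 115 to 149 FPKM. The 6 neuronal markers stood at 28.9 to 52.7 and 18.5 to 24.3 FPKM. The 6 proliferation genes summed to 313 to 408 FPKM in SCPs and 149 to 168 FPKM in RSCs. In such bulk samples fewer cells of a type and less RNA per cell cannot be told apart.

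**Figure D4:**
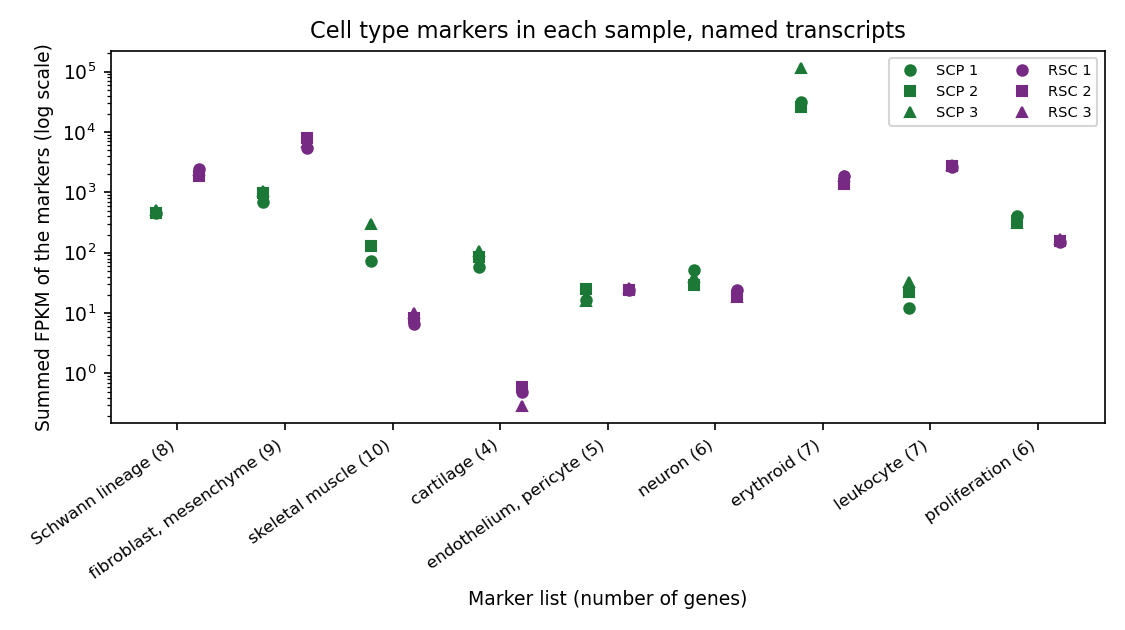
Summed FPKM of each marker list, on a log axis, in each of the 6 samples, with the number of genes in brackets. The muscle, cartilage and erythroid sums are higher in SCPs, the leukocyte and fibroblast sums are higher in RSCs, and SCP 3 has the highest muscle and erythroid sums.

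Several members varied within a group beside these markers, and part of this order depended on the transcripts counted. SCP 3, with the highest muscle sum (301 FPKM, against 73.0 and 129 FPKM in SCP 1 and SCP 2), also had the highest H19, Meg3, Dlk1, Ndn and Peg10, and the lowest Cdkn1c, Grb10 and Plagl1, all from named transcripts. With unnamed transcripts it had the lowest Peg10 and the highest Cdkn1c. Muscle was not alone, as SCP 3 also had the highest fibroblast (1041 FPKM), cartilage (107), erythroid (116143), leukocyte (32.8) and Schwann lineage (511) sums. Its proliferation (313 FPKM) and endothelial and pericyte (15.6 FPKM) sums were the lowest of the SCPs from named transcripts. With unnamed transcripts the lowest proliferation sum was that of SCP 2 (419 FPKM, against 428 FPKM in SCP 3). The lowest endothelial and pericyte sum was then that of SCP 1 (33.9 FPKM, against 43.8 FPKM in SCP 3). RSC 2, with the highest fibroblast and mesenchyme sum (8032 FPKM, against 5373 and 6777 FPKM in RSC 1 and RSC 3), also had the highest H19, Meg3, Dlk1, Mest, Ndn and Peg10, and the lowest Cdkn1c, Grb10 and Plagl1, the last listed at 0. With unnamed transcripts it had the highest Plagl1 of the RSCs. Under those sums the fibroblast and mesenchyme markers lay closer, at 6946, 8036 and 7394 FPKM in RSCs 1 to 3. RSC 2 also had the lowest Schwann lineage sum from named transcripts (1873 FPKM, against 2395 and 2306 FPKM in RSC 1 and RSC 3). Without SCP 3 the log2 fold changes were -1.44 for H19, -2.36 for Meg3, -2.15 for Ndn and -2.45 for Peg10. The part of these other cells in the results was not tested.

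The neighbours of the members on rn6 were compared in windows of 500 kb. Within 500 kb of a member lay 57 other tested genes, of which 14 (24.6%) passed toward SCPs and 9 toward RSCs. Over all tested genes 22.4% and 18.1% passed, so these counts were near the background. The median log2 fold change of the 57 neighbours, -0.17, was that over all genes. With unnamed transcripts 28 of 60 (46.7%) passed toward SCPs and 14 toward RSCs, beside 34.2% and 23.2% of all genes. Their median was -0.72, against -0.24 over all genes. Beside Ndn, in the cluster of the Prader-Willi region, Peg12 (15.1 ± 0.642 (SD, n = 3) FPKM in SCPs and 0.858 ± 0.0713 in RSCs) and Mkrn3 (6.46, 6.62 and 6.40 FPKM in SCPs, and 0.986 ± 0.241 in RSCs) were higher in SCPs, and Magel2 stood at 7.77, 4.92 and 10.3 FPKM in SCPs and was listed at 0 in all 3 RSC samples. Beside Grb10, the decarboxylase gene Ddc was higher in SCPs (13.4 ± 1.73 against 0.185 ± 0.138 FPKM).

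Beside Cdkn1c the direction was mixed. The transporter gene Slc22a18 was higher in RSCs (1.61 ± 0.190 FPKM in SCPs against 15.7 ± 1.03 in RSCs, SD, log2 fold change 2.68), and so was Osbpl5 (13.1 ± 3.30 against 26.2 ± 2.53 FPKM). Tssc4 did not pass (log2 fold change -1.80 ± 1.34) and was listed at 0 in RSC 3, while Kcnq1 and Phlda2 were under the filter. Beside Mest, Copg2 was listed at 0 in all SCP samples and stood at 27.8, 26.0 and 30.4 FPKM in RSCs, and such a 0 can be a failed estimate. Beside Peg10, Sgce (log2 fold change 0.52 ± 0.15) and Ppp1r9a (-1.29 ± 0.96) did not pass, nor did Usp29 (-0.40 ± 0.74) and Zim1 (-1.56 ± 0.92) beside Peg3, while Klf14 and Ascl2 were under the filter. With unnamed transcripts all 4 passed, Usp29 (-1.72 ± 0.19), Zim1 (-3.43 ± 0.33) and Ppp1r9a (-1.31 ± 0.13) toward SCPs and Sgce (0.41 ± 0.09) toward RSCs. Igf2, the neighbour of H19 that encodes a fetal growth factor, stood at 1084, 1180 and 1066 FPKM in SCPs and at 68.6, 87.5 and 74.5 FPKM in RSCs.

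Of 45 other imprinted genes written from general knowledge, with earlier results of these data known, 37 were in the tables and 27 were tested. The threshold was passed by 13 toward SCPs and by 4 toward RSCs, and 10 did not pass, beside 22.4% and 18.1% of all tested genes, with a median log2 fold change of -1.05. The filter took the mean over both groups, so some of these genes entered only through the group where they were high. Asb4, Magel2, Ddc, Zdbf2, Cdh15, Slc38a4, Peg12 and Mkrn3 had RSC means under 1 FPKM. Copg2 and Tfpi2 had SCP means under 1 FPKM. The largest differences toward SCPs were Nnat, which encodes neuronatin (397 ± 68.3 (SD, n = 3) against 5.98 ± 1.27 FPKM, log2 fold change -5.84), and Asb4 (11.9 ± 3.26 against 0.0184 ± 0.0318 FPKM, -3.63). Those toward RSCs were Copg2, listed at 0 in SCPs, and Tfpi2, a protease inhibitor gene (0.548 ± 0.163 against 10.1 ± 4.38 FPKM, 2.77). With unnamed transcripts 18 were higher in SCPs and 7 in RSCs, beside 34.2% and 23.2% of all genes, so that the count toward RSCs was near the background.

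**Figure D5:**
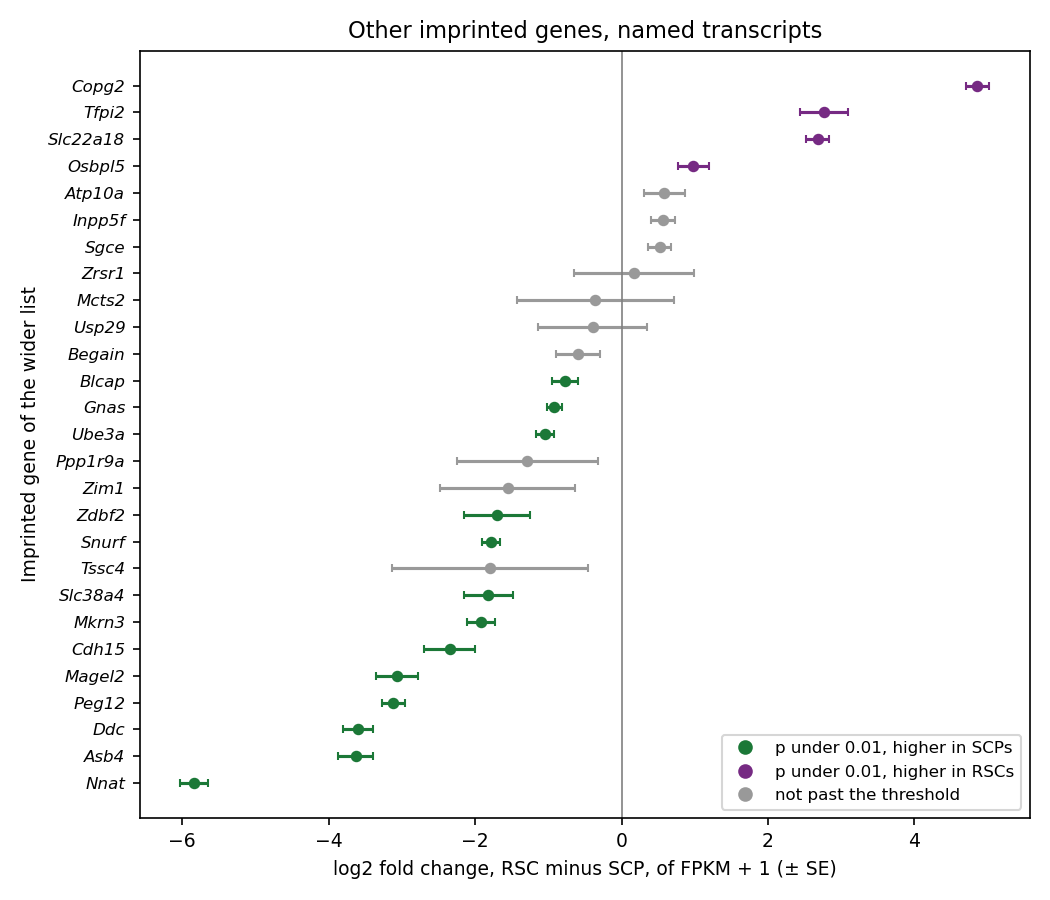
The log2 fold change, RSC minus SCP, of the 27 tested genes of the wider imprinted list, with SE. Genes at p under 0.01 are green where higher in SCPs (13) and purple where higher in RSCs (4), and Copg2, at the top, is listed at 0 in all SCP samples.

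Relatives and partners of the members went both ways. Of 16 tested genes out of 18, 8 were higher in SCPs, 3 were higher in RSCs and 5 did not pass, beside 22.4% and 18.1% of all tested genes, with a median log2 fold change of -0.77. The kinase Cdk2 (38.2 ± 3.53 (SD, n = 3) against 7.66 ± 2.56 FPKM, -2.22) and its cyclin Ccne1 (43.2 ± 7.81 against 7.46 ± 0.780 FPKM, -2.38), both held back by p57Kip2, were higher in SCPs. Cdkn1a, which encodes p21, an inhibitor of the same family as Cdkn1c, was higher in RSCs (4.05 ± 1.66 against 28.9 ± 2.73 FPKM, 2.61), as was the cyclin Ccnd1 (144 ± 17.5 against 313 ± 19.9 FPKM, 1.11). Of 8 genes that set, keep or read the imprint marks, 6 passed toward SCPs in the limma test, beside 22.4% of all tested genes. None passed toward RSCs, beside 18.1%, and the median log2 fold change was -1.59. The DNA methyltransferase Dnmt3a (20.0 ± 3.35 FPKM in SCPs, and 2.47, 0 and 1.57 FPKM in RSCs, -3.33) and Uhrf1, which guides Dnmt1 to newly copied DNA (17.3 ± 2.81 FPKM in SCPs, and 1.97, 4.23 and 0 FPKM in RSCs, -2.86), had the largest differences from named transcripts. With unnamed transcripts Uhrf1 stood at 49.0 ± 8.82 FPKM in SCPs and 13.9 ± 0.977 FPKM in RSCs (-1.74), with no sample at 0, and Trim28 (-1.81) came before it.

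The gene with the most similar 6 values was sought for 8 of the members, by Euclidean distance of log2(FPKM + 1) over the 6 samples. Grb10 lay closest to the imprinted gene Nnat (distance 0.89), and Cdkn1c closest to Grb10 (1.29). Ndn lay closest to Igfbp3, an IGF-binding protein (0.58), Meg3 to the mitotic gene Cdc20 (0.70), Dlk1 to the collagen gene Col20a1 (0.95), Plagl1 to Zfp512b (0.93) and Peg10 to the muscle gene Myl1 (1.13). Mest had no near match, with Pxdn at 2.99. The distances used named transcripts. Mest and Pxdn were both listed at 0 in RSC 3, and Plagl1 and Zfp512b both in RSC 2. These matches therefore rest in part on zeros, which Mest and Plagl1 did not have with unnamed transcripts. These are distances over 6 samples that differ mainly by group.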

How the data were processed

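The authors prepared mRNA libraries, read them in pairs and mapped them to rn6 with TopHat. The submitters' processing notes name TopHat2 2.1.0, Cufflinks 2.2.1 and FastQC 0.11.2. For each sample the authors deposited Cufflinks transcripts in FPKM, with the read coverage of each transcript, a signal used here only for relative depth (0.79 to 1.00). Counts and total depth are unknown, so no count test was run.

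FPKM were summed by gene symbol over named transcripts, leaving out 77 transcripts per table whose names had become dates. Groups were compared with limma 3.58.1 (R 4.3.3) on log2(FPKM + 1), two-sided, with a variance trend, for genes whose mean over the 6 samples reached 1 FPKM. Calls used an unadjusted p under 0.01, and p-values were adjusted by Benjamini-Hochberg across every gene tested. The method was tested on simulated data. Sequences were read from RefSeq promoters (GRCr8), and no coordinates were converted to rn6. The members and lists were chosen with earlier results of these data known. The text names all members, the 2 genes of each list with the largest difference in each direction, listed imprinted genes within 500 kb of a member, Igf2, the nearest gene to each member, and markers, and the nearest gene to H19 is not reported here. Tables were handled with pandas 2.3.3 in Python 3.11.15, and figures were drawn with matplotlib 3.10.9.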

Additional observations from a re-analysis of the deposited data

Results flagged for a closer look

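Transcripts without a gene name, outside the sums of named transcripts, carried signal at several members, and those at Peg3 and Peg10 are described first. Over the position of Peg3, whose named transcript was listed at 0, their mean was 306 FPKM in SCPs. Past the end of the named Peg10 model, between rn6 chr4:29806677-29808793, a transcript of about the same extent was assembled in all 3 SCP samples, with a length-weighted mean of 147 FPKM and values of 158, 155 and 129 FPKM. In RSCs the same stretch held no transcript in RSC 1, 3 fragments in RSC 2 (5.86 FPKM over the stretch) and 2 in RSC 3 (4.46 FPKM). From the start of the named Peg10 model to the end of this stretch is 13270 bases, and RefSeq gives Peg10 13199 bases on GRCr8. This stretch entered neither sum for Peg10. Short unnamed transcripts inside Meg3 and Plagl1 also entered neither sum. Inside Meg3 they reached 451 FPKM (152 bases) in SCP 1 and 53.9 FPKM (254 bases) in RSC 1. Inside Plagl1 they reached 53.0 FPKM (222 bases) in SCP 2.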

How the results depend on the processing

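All 144 values of the 9 tested members under 16 alternatives kept their direction, between -6.78 and -1.31 in log2 fold change, and 139 kept their side of p under 0.01. The other 5 were Plagl1 and Mest with a pseudocount of 0.1 (-4.67 and -6.78) and Plagl1 without SCP 1, SCP 2 or SCP 3. The range was widest for Peg10 (-4.78 to -2.45) and Mest (-6.78 to -4.44). The count of genes with p under 0.01 was 5268, and 8040 with unnamed transcripts added. Leaving out each sample gave 4449 to 4835 genes, 8 or 9 members and 14 to 19 genes of the wider imprinted list, which had 17 with all samples and 25 with unnamed transcripts. With median-of-ratios scaling 44.1% of the called genes were higher in SCPs, against 55.4%, the median of all genes moved from -0.17 to 0.02, and H19 stood at -1.31. Unnamed transcripts with adjusted p under 0.01, chosen after seeing the data, gave 10 members. Same-numbered samples did not deviate together (correlations 0.044, -0.0049 and 0.026), so the numbers were not taken as pairs, and a replicate block gave 4275 genes, 9 members higher in SCPs, 8 of them over 4-fold, and 16 genes of the wider list. Zeros and low FPKM, without counts, limit what can be said of Plagl1, Mest and Peg10 in RSCs.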
